A study of Homo sapiens with 4 samples.

Results

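The actin cytoskeleton and focal adhesion genes described here were 49 genes of the 25702 in the count files. They were chosen by name, by matching the NCBI gene number to the symbol: 2 cytoplasmic actins, 36 proteins that bind, cut, cap, nucleate, branch or crosslink actin, and 11 adaptors that link integrins to actin. The choice was made with earlier results of these data known. Their level was measured by whole transcriptome sequencing (WTS), with libraries made from poly(A) RNA, in K562, an established erythroid-type cell line from a human chronic myeloid leukemia. One group was transfected with LeGO-iG2 expressing the fusion RUNX1::ERG, which joins the DNA-binding parts of a RUNX and an ETS transcription factor, and the control group with LeGO-iG2 alone (empty vector). Each group had 2 libraries, labelled replicates 1 and 2. LeGO-iG2 also carries green fluorescent protein, so transfected cells of both groups carried that gene. The labels describe all libraries as untreated, and the cells were transfected by nucleofection of plasmid. Whether GFP-positive cells were sorted for WTS is not given in the sources used here, so untransfected cells may be part of each library. The study reports that its protocol transfected most K562 cells, without a value for these libraries. The study calls the replicates biological and the labels do not say how they were cultured, so p-values measure the spread between these libraries.

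The libraries held between 59695387 and 82352144 counts, so a count of 0 allows up to 3 counts, or 0.0364 to 0.0503 CPM (counts per 1000000, here of the library total). Such limits cover counting error only. Between 66.7% and 68.9% of the counts from 1 to 10 were even, and where the mates of a read pair are counted apart, fragments are fewer than counts and the limit is higher. With the empty vector ERG had 4 counts per library. It had 80443 counts in the first RUNX1::ERG replicate and 27218 in the second, so the labels held, and ERG was lower in the second. K562 is known for GATA1, the erythroid transcription factor, and for embryonic globin. GATA1 was at 256 to 302 CPM in the 4 libraries, and HBE1, which encodes epsilon globin, at 6394 to 8412 CPM. Other K562 markers differed in direction. EPOR, the erythropoietin receptor, rose from 41.6 in both controls to 89.1 and 62.8 CPM (log2 fold change 0.87). HBZ, zeta globin, was at 966 and 1100 against 753 and 615 CPM (-0.59), and TFRC, the transferrin receptor, at 709 and 1275 against 570 and 764 CPM (-0.57), neither past the threshold, which HBZ passed under 6 of the 8 alternatives that kept all libraries. The 8 platelet and megakaryocyte markers summed to 73.3 and 84.4 CPM with the empty vector and to 489 and 428 CPM with RUNX1::ERG. Of these, 5 rose (PF4, PPBP, ITGA2B, ITGB3 and TUBB1), while GP9, GP1BB and TREML1 had at most 3 counts in every library.

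Cells hold actin as single molecules and as filaments. Profilin and thymosin bind the single molecules, Arp2/3 and formins start filaments, WAVE proteins switch Arp2/3 on, capping proteins close the growing end, and cofilin, destrin and gelsolin cut or take apart filaments. Filamin and actinin crosslink filaments, tropomyosin lies along them, and talin, kindlin and vinculin tie them to integrins at focal adhesions, the contacts with the matrix. Megakaryocytes and platelets use this machinery to spread, to shed platelets and to activate their integrins. Serum response factor (SRF), helped by the coactivators MRTFA and MRTFB that sense free actin, drives many of these genes from a DNA element called the CArG box.

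Promoters are shown for the 2 genes that passed the test, GSN and FERMT3, and for ACTG1 and FLNA, abundant genes with a CArG box near the start. Each run is the 200 bases before the start of the MANE Select transcript on GRCh37, 5′ to 3′ on the gene's strand. It was read from the GRCh37 genome and found letter for letter in the RefSeq promoter window of GRCh38.p14. Capitals mark a RUNX core in GSN and a CArG box in ACTG1 and FLNA.
GSN, chr9:124030240-124030439, plus strand: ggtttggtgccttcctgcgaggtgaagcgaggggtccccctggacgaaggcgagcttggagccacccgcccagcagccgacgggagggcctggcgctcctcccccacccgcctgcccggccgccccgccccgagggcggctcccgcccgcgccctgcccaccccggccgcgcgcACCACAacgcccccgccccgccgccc
FERMT3, chr11:63973993-63974192, plus strand: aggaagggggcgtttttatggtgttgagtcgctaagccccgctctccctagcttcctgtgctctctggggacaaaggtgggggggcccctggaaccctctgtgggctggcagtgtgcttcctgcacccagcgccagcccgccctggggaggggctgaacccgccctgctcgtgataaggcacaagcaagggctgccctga
ACTG1, chr17:79479826-79480025, minus strand: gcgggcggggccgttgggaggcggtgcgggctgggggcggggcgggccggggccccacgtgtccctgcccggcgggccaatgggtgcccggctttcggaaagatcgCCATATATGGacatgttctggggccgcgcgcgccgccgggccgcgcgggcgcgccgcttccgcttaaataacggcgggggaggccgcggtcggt
FLNA, chrX:153603003-153603202, minus strand: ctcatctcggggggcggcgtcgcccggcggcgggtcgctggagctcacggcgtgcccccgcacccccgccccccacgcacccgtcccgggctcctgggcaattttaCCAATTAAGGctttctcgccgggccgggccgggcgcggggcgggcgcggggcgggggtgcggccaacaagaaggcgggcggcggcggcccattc
The RUNX core (TGTGGT, here as ACCACA on the other strand) began 26 bases before the GSN start, and an ETS core (CCGGAA) began 2 bases before it and ran over it. The CArG box began 94 bases before the start in both ACTG1 and FLNA. None of these motifs was in the FERMT3 run. Another RefSeq promoter window of FERMT3 held an ETS core (as TTCCGG) 114 bases before its own start. A further window of GSN held an ETS core 133 bases before its own start, and another held ETS cores 105 and 103 bases before. Only these exact letters were searched, so other forms of such sites were not counted.

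RefSeq promoter windows, from 250 bases before a start to 50 after it, were given for 45 of the 49 genes, 78 windows in all. ACTB, ARPC1B, PFN2 and WASF2 had no window and were not searched. A CArG box stood on either strand in 4 of these windows (5.13%) and in 1.29% of all 35116 windows. The 4 genes were ACTG1, ACTN1, FLNA and TPM4, and their log2 fold changes were 0.28, 0.08, 0.16 and -0.12, none past the threshold. In ACTN1 and TPM4 the match lay in the window of a start other than that of the MANE Select transcript. The RUNX core was in 10 windows (12.8%, against 13.1% of all windows), and the ETS core in 18 (23.1%, against 17.2%). A match of these letters is a description and not a binding site.

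Gene levels in CPM are given after TMM scaling in edgeR. A log2 fold change is RUNX1::ERG minus empty vector, with its standard error (SE), and a gene is called past an adjusted p of 0.05 (edgeR's quasi-likelihood test, Benjamini-Hochberg over all 15394 genes tested). Of the 49 genes, 48 passed the filter on low counts. GSN and FERMT3 rose and no gene fell, which is 4.17% of the 48 called, against a background of 4.79% of all genes tested in either direction, 3.64% higher and 1.15% lower. In this fit the share called was thus near the background. At an unadjusted p under 0.05, 12 of the 48 were higher and 1 was lower, beside 10.7% and 7.26% of all genes tested. That share was above the background for higher and below it for lower. DESeq2 called 5 higher and 1 lower (7.82% of all genes in either direction), edgeR with no filter on low counts 6 and 1 (7.38%), and edgeR with libraries scaled by their totals 4 and 0 (4.01%). In each of these fits the share called among the 49 was above that of all genes. The reading so depends on the setting, and the difference was not tested.

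The estimates lay more often above 0 than below it. Of the 48, 33 (68.8%) had a log2 fold change above 0, against 49.8% of all genes tested. Their median was 0.13, beside 0.00 for all genes, and they ran from -1.10 for TPM2 to 2.64 for GSN. In 21 genes (43.8%) both RUNX1::ERG libraries lay above both empty vector libraries, and in 10 (20.8%) both lay below. Among all genes tested these shares were 25.1% and 22.1%. Since the genes were chosen with earlier results of these data known, such shares are a description and not a test. With the empty vector, the 49 genes took 1.3% of all counts in both libraries, and with RUNX1::ERG 1.6% and 1.56%. Without the 2 actin genes the shares were 1.06% and 1.05% against 1.27% and 1.26%. In these bulk libraries, more cells that hold an RNA and more of it per cell cannot be told apart.

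**Figure D1:**
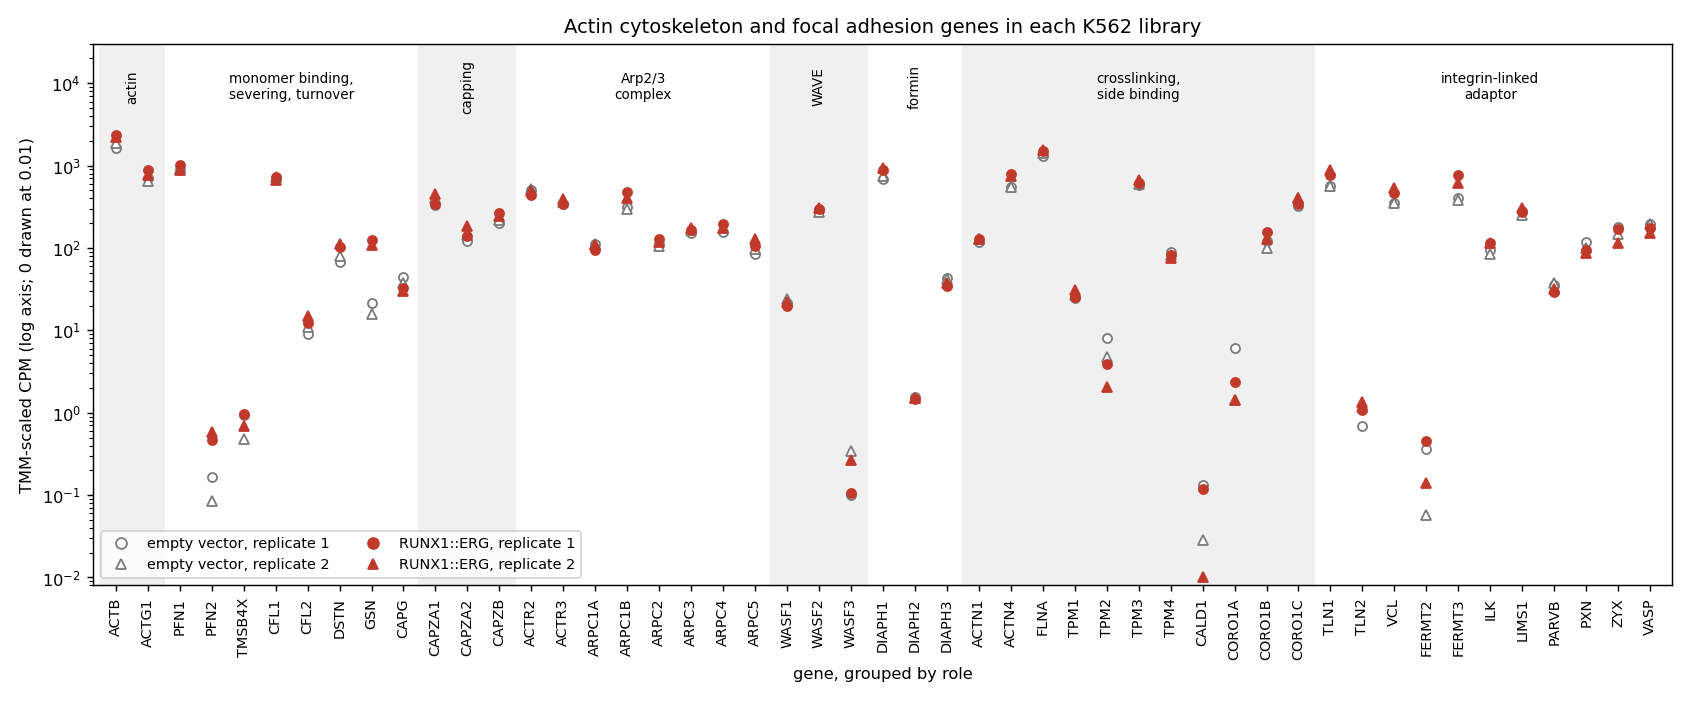
TMM-scaled CPM (log axis, 0 drawn at 0.01) of the 49 genes in each of the 4 libraries, grouped by role. Open grey symbols are empty vector, filled red symbols are RUNX1::ERG, circles replicate 1 and triangles replicate 2. The red symbols of GSN, at 124 and 108 CPM, stand well above the grey ones at 21.6 and 15.8, while for most other genes the 4 symbols lie close together.

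**Figure D2:**
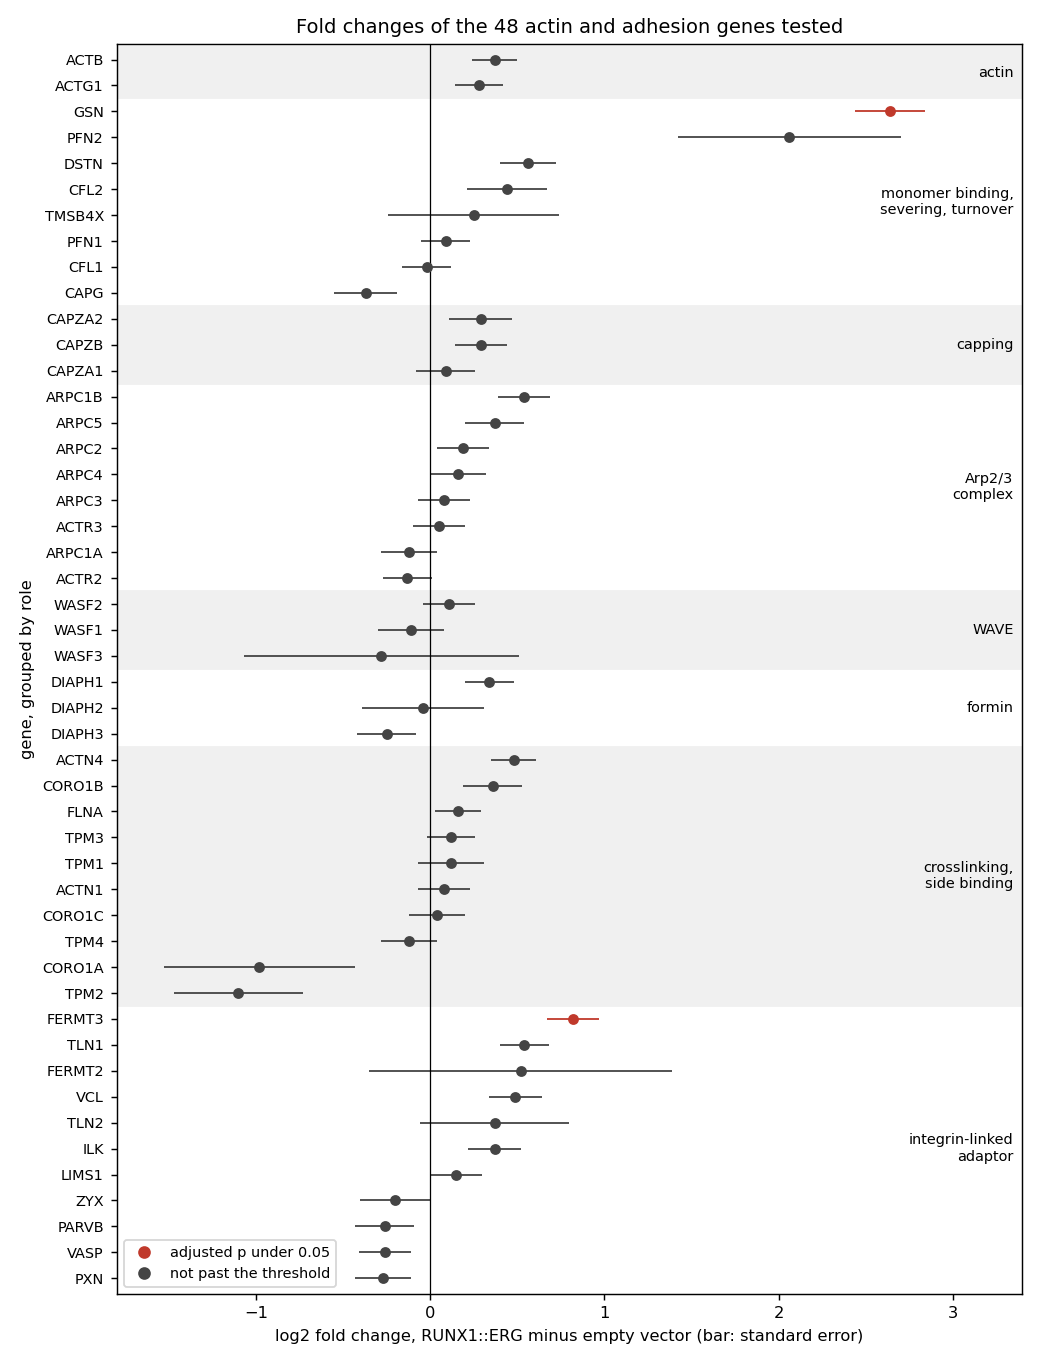
Log2 fold change, RUNX1::ERG minus empty vector, of the 48 genes tested, with the standard error as a bar and genes grouped by role. Red marks an adjusted p under 0.05, which GSN at 2.64 and FERMT3 at 0.82 passed. The widest bars belong to genes of few counts, such as FERMT2, WASF3 and PFN2.

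GSN encodes gelsolin, which severs filaments and caps them in a calcium-dependent way, and it had the largest change of the 48 genes tested. The gene (NCBI gene 2934) lies on chromosome 9 of GRCh37, from 123970072 to 124095121. GSN had 1298 and 1112 counts in the empty vector libraries and 10471 and 7794 counts in the RUNX1::ERG libraries. In CPM this was 21.6 and 15.8 against 124 and 108, so the groups were far apart and each RUNX1::ERG library held several times the level of either control. The means were 18.7 ± 4.09 (SD, n = 2) and 116 ± 11.2 (SD, n = 2), a ratio of 6.24. The log2 fold change was 2.64 (SE 0.20, adjusted p = 5.8e-05 from edgeR). GSN was called under all 12 alternatives, and its log2 fold change was 2.43 to 2.88 when 1 library was left out. No exon of another gene in the files overlapped its MANE Select transcript.

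CAPG, the closest relative of gelsolin here, caps filaments but does not sever them. It was at 44.1 and 37.4 CPM with the empty vector and at 32.6 and 30.2 CPM with RUNX1::ERG (log2 fold change -0.37, SE 0.18, adjusted p = 0.31). The libraries of the groups did not overlap, in the opposite order to GSN. The ratio of GSN counts to CAPG counts was 0.489 and 0.422 with the empty vector and 3.81 and 3.59 with RUNX1::ERG, so CAPG had more counts than GSN in the controls and fewer with the fusion.

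Destrin and the cofilins disassemble filaments. DSTN was at 67.2 and 79 CPM with the empty vector and at 102 and 113 CPM with RUNX1::ERG. Its groups did not overlap, but its log2 fold change of 0.56 (SE 0.16) missed the threshold with edgeR (adjusted p = 0.085) and passed it with DESeq2 (adjusted p = 0.048). CFL1, the main non-muscle cofilin, ran from 663 to 736 CPM with overlapping groups (log2 fold change -0.02), and CFL2, the muscle form, was far lower at 8.95 to 15.1 CPM (0.44, SE 0.23). The ratio of DSTN to CFL1 counts was 0.101 and 0.107 against 0.141 and 0.171. CFL1 is uncertain in these counts, since it has processed pseudogenes and 9.16% of its transcript lies opposite SNX32.

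Profilin hands single actin molecules to growing filament ends. PFN1 was the most abundant gene of the turnover group, at 880 and 904 CPM with the empty vector and 1008 and 889 CPM with RUNX1::ERG (log2 fold change 0.09, SE 0.14). Its groups overlapped. PFN2, the form best known from brain, had only 10 and 6 counts against 39 and 42, or 0.166 and 0.0851 CPM against 0.463 and 0.584. Those groups did not overlap, and the log2 fold change of 2.06 (SE 0.64) missed the threshold (adjusted p = 0.10) but passed it with no filter on low counts (adjusted p = 0.047). TMSB4X, thymosin beta-4, which keeps actin as single molecules, had 34 to 82 counts per library, fewer than 1 CPM in each (log2 fold change 0.25, SE 0.49). It has near-identical copies in the genome, so its low count is uncertain. Of these 8 turnover genes, GSN alone was called, and their median log2 fold change was 0.35.

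The 2 cytoplasmic actins were among the most abundant genes. ACTB was at 1619 and 1893 CPM with the empty vector and at 2326 and 2213 CPM with RUNX1::ERG, and ACTG1 at 699 and 658 against 887 and 766 CPM. In both genes both fusion libraries lay above both controls, yet neither passed the threshold in this comparison. The log2 fold change was 0.37 (SE 0.13, adjusted p = 0.15) for ACTB and 0.28 (SE 0.14, adjusted p = 0.33) for ACTG1. The ratio of ACTB to ACTG1 counts was 2.31 and 2.88 with the empty vector and 2.62 and 2.89 with RUNX1::ERG, and the groups overlapped. Both genes have near-identical coding sequences and processed pseudogenes, so the split of reads between them is uncertain.

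CAPZA1, CAPZA2 and CAPZB encode the capping protein that closes the growing end. None was called. CAPZA1, the most abundant, was at 335 and 404 CPM with the empty vector and at 341 and 448 CPM with RUNX1::ERG (log2 fold change 0.09, SE 0.17), with overlapping groups. CAPZA2 and CAPZB both had a log2 fold change of 0.29, and the groups did not overlap for CAPZB, at 203 and 216 against 264 and 248 CPM.

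The Arp2/3 complex branches new filaments off old ones. None of its 8 genes was called, 6 estimates were above 0 and 2 below, and the median was 0.12. ARPC1B, the form of subunit 1 that is best known from blood cells and platelets, stood at 311 and 299 CPM with the empty vector and at 484 and 400 CPM with RUNX1::ERG (log2 fold change 0.54, SE 0.15, adjusted p = 0.077). DESeq2 called it (adjusted p = 0.046). ARPC1A, the alternative form of the same subunit, was at 112 and 111 against 95.5 and 110 CPM (log2 fold change -0.12, SE 0.16). The ratio of ARPC1B to ARPC1A counts was 2.78 and 2.70 in the controls and 5.07 and 3.65 with the fusion, without overlap. Of the ARPC1B transcript, 16.1% lies opposite exons of PDAP1, and the strand setting of the counting is not given, so part of its count is uncertain.

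ACTR2, one of the actin-like subunits with the highest CPM of the Arp2/3 genes before transcript length is taken into account, was at 502 and 527 CPM with the empty vector and at 446 and 495 CPM with RUNX1::ERG (log2 fold change -0.13, SE 0.14). Its partner ACTR3 was at 347 and 367 against 344 and 394 CPM (0.05, SE 0.15). ARPC2, ARPC3, ARPC4 and ARPC5, further subunits of the complex, had log2 fold changes of 0.19, 0.08, 0.16 and 0.37. The unequal estimates of the subunits of 1 complex were not tested against each other.

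WAVE proteins switch Arp2/3 on downstream of Rac. WASF2, which encodes WAVE2, was the most abundant, at 292 and 271 CPM with the empty vector and 296 and 310 CPM with RUNX1::ERG (log2 fold change 0.11, SE 0.15). WASF1 was lower, at 19.7 to 23.8 CPM, and WASF3 had 6 to 24 counts (-0.28, SE 0.79), too few to show a modest change. The diaphanous formins lengthen straight filaments. DIAPH1 stood at 685 and 748 CPM against 874 and 944 CPM (log2 fold change 0.34, SE 0.14, adjusted p = 0.21), with groups that did not overlap. DIAPH3 was at 43.3 and 42 against 34.3 and 37.4 CPM (-0.25, SE 0.17, adjusted p = 0.50), in the opposite order, and DIAPH2 ran from 1.48 to 1.56 CPM.

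Of the 11 genes for crosslinking and side binding, 10 were tested and none was called (median 0.10, 7 estimates above 0 and 3 below). FLNA, filamin A, which crosslinks filaments and binds platelet receptors, was the most abundant, at 1308 and 1409 CPM with the empty vector and 1492 and 1546 CPM with RUNX1::ERG (log2 fold change 0.16, SE 0.13). ACTN4, a non-muscle actinin, stood at 551 and 554 against 790 and 746 CPM, a mean of 552 ± 1.93 against 768 ± 31.4 (SD, n = 2). The groups did not overlap, and its log2 fold change was 0.48 (SE 0.13, adjusted p = 0.075), past the threshold when libraries were scaled by their totals (adjusted p = 0.047). The related ACTN1 ran from 117 to 129 CPM (0.08, SE 0.15). Exons of CAPN12 lie opposite 17.4% of the ACTN4 transcript.

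The tropomyosins did not all lie in the same direction. TPM2, known from muscle, had the lowest log2 fold change of the 48, with 483 and 339 counts against 330 and 149, or 8.02 and 4.81 CPM against 3.91 and 2.07. The groups did not overlap. Its log2 fold change was -1.10 (SE 0.37, adjusted p = 0.13 with edgeR and 0.039 with DESeq2), and it ran from -1.63 to -0.68 when 1 library was left out. TPM3, the most abundant tropomyosin, was at 580 and 592 against 612 and 662 CPM (0.12, SE 0.14), TPM1 ran from 24.7 to 31 CPM (0.12), and TPM4 from 76.6 to 89.8 CPM (-0.12). Of the summed tropomyosin level per transcript length, TPM3 made up 56.5% and 58.4% with the empty vector and 60.2% and 61.7% with RUNX1::ERG, and TPM2 made up 4.64% and 2.81% against 2.28% and 1.15%.

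Coronins bind filaments and Arp2/3. CORO1C ran from 324 to 406 CPM with overlapping groups (log2 fold change 0.04), and CORO1B stood at 120 and 100 against 156 and 127 CPM (0.36, SE 0.17), although 20.6% of its transcript is shared with exons of PTPRCAP on the same strand. CORO1A, the form of blood cells, was at 6.03 and 1.42 against 2.35 and 1.42 CPM (-0.98, SE 0.55). Empty vector replicate 1 alone was high, and the other libraries lay together. CALD1, caldesmon, had 8 and 2 against 10 and 0 counts and was not tested.

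FERMT3 encodes kindlin-3, the blood cell kindlin that binds the tail of integrin beta chains and is needed to activate them in platelets, and it was the other called gene. It (NCBI gene 83706) lies on chromosome 11 of GRCh37, from 63973398 to 63991368. FERMT3 was at 402 and 379 CPM with the empty vector and at 760 and 618 CPM with RUNX1::ERG. The groups did not overlap, and replicate 1 of the fusion was the highest. The means were 390 ± 16 and 689 ± 100 (SD, n = 2), a ratio of 1.76. The log2 fold change of FERMT3 was 0.82 (SE 0.15, adjusted p = 0.013), and without RUNX1::ERG replicate 1 it was 0.66, which ended the call (adjusted p = 0.13). Exons of TRPT1 lie opposite 3.72% of its transcript. FERMT2, the kindlin of most other tissues, had 22 and 4 against 38 and 10 counts (0.52, SE 0.87), too few to show a modest change.

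Talin binds the same integrin tails, and vinculin strengthens its hold on actin. TLN1 stood at 565 and 573 CPM with the empty vector and at 760 and 889 CPM with RUNX1::ERG (log2 fold change 0.54, SE 0.14, adjusted p = 0.059). DESeq2 called it (adjusted p = 0.039). VCL stood at 349 and 356 against 461 and 531 CPM (0.49, SE 0.15, adjusted p = 0.088). In both genes the controls lay close together and both fusion libraries lay above them. TLN2 had 42 to 97 counts per library (0.37, SE 0.43) and overlapping groups.

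ILK, LIMS1 and PARVB encode parts of the complex of integrin-linked kinase, PINCH and parvin that sits on the integrin tail. ILK was at 93.8 and 85.4 against 115 and 116 CPM (log2 fold change 0.37, SE 0.15, adjusted p = 0.23), but exons of TAF10 lie opposite 86.9% of its transcript, so its count is uncertain. LIMS1 ran from 249 to 309 CPM (0.15) and overlapped. PARVB was at 35.3 and 38.1 against 29.4 and 32 CPM (-0.26, SE 0.17). PXN, ZYX and VASP encode the scaffold paxillin, the tension-sensing zyxin and an actin polymerase that zyxin recruits. Their log2 fold changes were -0.27, -0.20 and -0.26, with adjusted p from 0.43 to 0.69, so none was called. VASP was at 195 in both controls and at 174 and 151 CPM with the fusion, and exons of PXN-AS1 lie opposite 33.8% of the PXN transcript. Of the 11 adaptors, FERMT3 alone was called, 7 estimates were above 0 and 4 below, and the median was 0.37.

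Levels of different genes were compared per transcript length, as counts over the length of the MANE Select transcript, scaled to a sum of 1000000 in each library. With the empty vector, PFN1 (2453 to 2476 on this scale) was above ACTB (2028 to 2288), followed by CFL1 at a mean of 1255, ACTG1 at 789 and ARPC1B at 450. Of the PFN1 transcript, 13.8% lies opposite exons of ENO3, so the place of PFN1 above ACTB is uncertain. Below them ARPC3, FLNA, CAPZA1 and FERMT3 had means of 378, 356, 349 and 348, and the spans of CAPZA1 (322 to 376), FLNA (349 to 363) and FERMT3 (332 to 365) overlapped. With RUNX1::ERG, ACTB was first at 2954 and PFN1 next at 2771, with spans of 2922 to 2986 and 2636 to 2906. FERMT3 was then 6 in the order, at 649, and its span of 591 to 707 overlapped that of ARPC1B at 634 to 746. GSN was 38 of 49 in the controls at 16.1 and 27 of 49 with the fusion at 106. CALD1 was the lowest in both groups, and DIAPH2, TLN2, FERMT2, PFN2 and WASF3 also had means under 1.

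Another 98 genes of actin control and focal adhesions were read from the same comparison: small GTPases and their kinases, SRF and its coactivators, further Arp2/3 activators, actin-binding proteins and adhesion proteins. This list was chosen with earlier results of these data known, so the shares below are a description and not a test of the list. Of the 87 tested, 9 rose (10.3%) and none fell, beside 3.64% and 1.15% of all genes tested. At an unadjusted p under 0.05 with edgeR, 29 were higher and 7 were lower, beside 10.7% and 7.26% of all genes tested. DESeq2 called 15 higher and 3 lower, beside 7.82% of all genes in either direction. The median log2 fold change was 0.21, and 64 of the 87 estimates (73.6%) were above 0, against 49.8% of all genes tested. The remaining 11 genes had too few counts to be tested.

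SRC, the founding member of the Src family of tyrosine kinases, which act at focal adhesions and below platelet integrins, changed most of the 87. It was at 11.8 and 9.46 CPM with the empty vector and at 81.8 and 63.1 CPM with RUNX1::ERG, with no overlap. Its log2 fold change was 2.77 (SE 0.21, adjusted p = 5.8e-05), and it was called under all 12 alternatives. BCAR1, a Src substrate and adhesion scaffold, rose from 35.7 and 46.2 to 79.5 and 65 CPM (0.82, SE 0.19, adjusted p = 0.035). PDLIM1, which binds actinin, rose from 145 and 133 to 234 and 220 CPM (0.71, SE 0.15, adjusted p = 0.024). PTK2, the focal adhesion kinase, was at 98.8 and 100 against 80.9 and 101 CPM (-0.13, SE 0.17, adjusted p = 0.76).

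SSH1 and SSH2, the slingshot phosphatases that switch cofilin on, both rose. SSH1 went from 17 and 17.8 to 39.5 and 45.4 CPM (log2 fold change 1.29, SE 0.18, adjusted p = 0.0028), and SSH2 from 9.78 and 10.7 to 18.3 and 20.1 CPM (0.91, SE 0.20, adjusted p = 0.030). RHOC, a small GTPase, rose from 224 and 238 to 458 and 402 CPM (0.90, SE 0.15, adjusted p = 0.0074), and ARHGDIB, a GTPase inhibitor of blood cells, from 17.9 and 22.3 to 48.3 and 51.2 CPM (1.31, SE 0.19, adjusted p = 0.0029). In these 4 genes the groups were well apart. RHOA, a related small GTPase, was at 112 and 122 against 121 and 128 CPM (0.09, SE 0.15) and overlapped.

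WAS, the blood cell activator of Arp2/3, rose from 3.42 and 3.28 to 10.7 and 6.30 CPM (log2 fold change 1.34, SE 0.30, adjusted p = 0.031). SPTAN1, the alpha spectrin of most cells, rose from 24.2 and 18.2 to 36.2 and 36.6 CPM (0.78, SE 0.20, adjusted p = 0.049). Leaving out RUNX1::ERG replicate 1 ended the calls of WAS, SPTAN1, SSH2, RHOC, BCAR1 and PDLIM1, with log2 fold changes of 0.91, 0.79, 0.97, 0.80, 0.67 and 0.67 and adjusted p from 0.06 to 0.35. SSH1, ARHGDIB and SRC kept their calls. SRF stood at 89.8 and 96.1 against 104 and 101 CPM (0.14, SE 0.15), MRTFA at 35.1 and 32.2 against 53.2 and 42.8 CPM (0.51, SE 0.18, adjusted p = 0.16), and MRTFB at 17.6 and 22.3 against 21.8 and 27.2 CPM (0.30, SE 0.21). None of these 3 passed the threshold in this comparison.

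**Figure D3:**
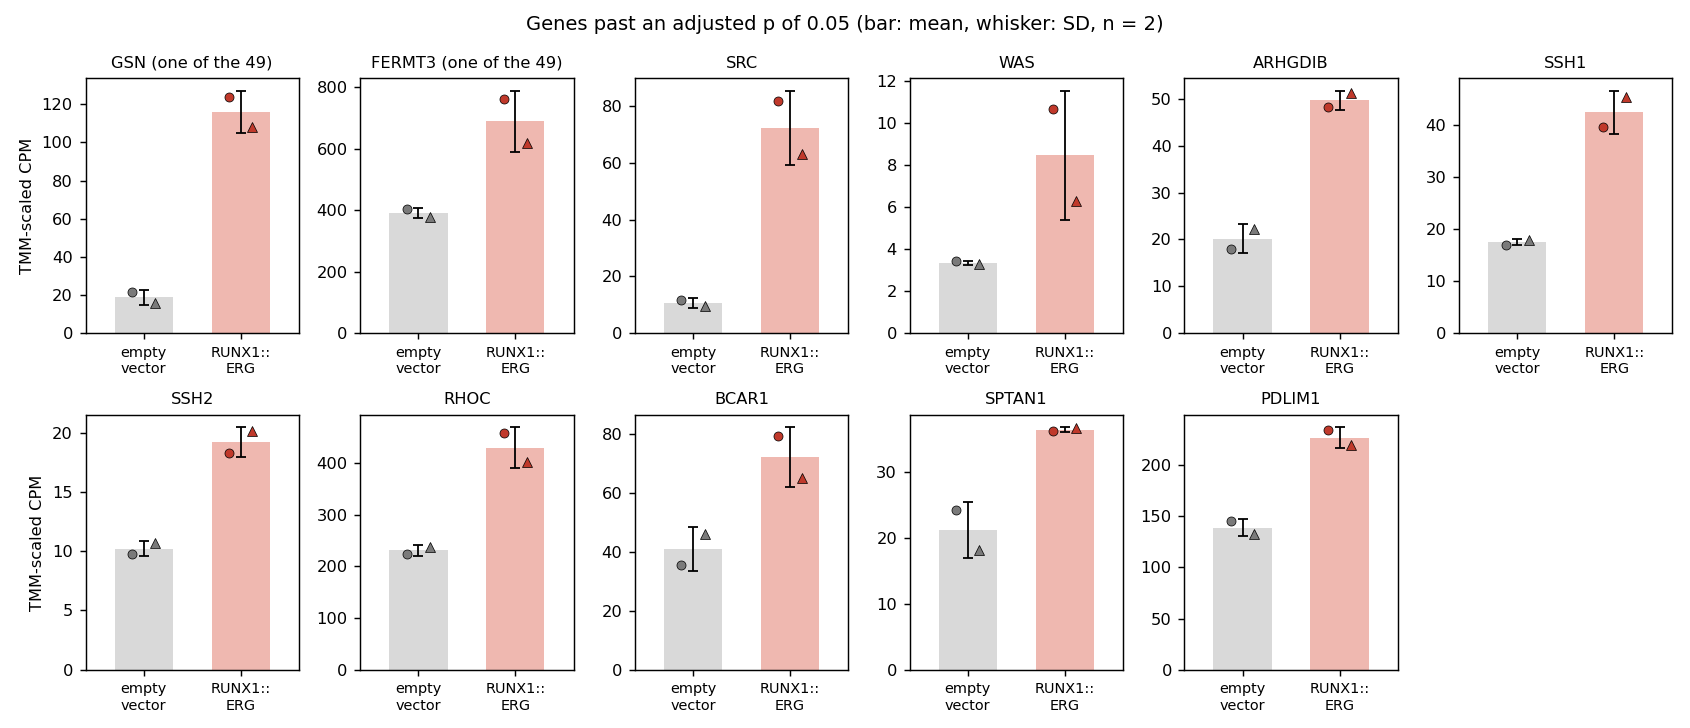
TMM-scaled CPM of the 11 genes past an adjusted p of 0.05, each on its own linear axis from 0, in the empty vector (grey) and RUNX1::ERG (red) groups. Bars are means, whiskers the SD (n = 2), circles replicate 1 and triangles replicate 2. In every panel both red points lie above both grey ones, and GSN (18.7 to 116 CPM) and SRC (10.6 to 72.4 CPM) have the largest ratios.

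Markers of other cell types were read beside these results. The platelet and megakaryocyte list moved in the same direction as GSN, FERMT3 and SRC, with 5 of 8 markers called and sums of 73.3 and 84.4 against 489 and 428 CPM. Monocyte markers summed to 8.37 and 10.6 against 22.9 and 20.9 CPM, with 2 of 6 called (CD14 and LYZ) and CD163 at 0 in every library. LYZ made up most of these sums, at 6.97 and 9.9 against 18.1 and 18.7 CPM. FCGR3A lay the other way, at 0.697 and 0.142 against 0.0949 and 0.0417 CPM, and S100A8 overlapped. Fibroblast markers summed to 6.26 and 6.86 against 24.9 and 22.3 CPM, with 1 of 6 called (COL1A1) and LUM at 0. COL1A1 made up most of these sums, at 4.13 and 3.62 against 22 and 19.6 CPM. PDGFRB had a log2 fold change of -1.09 (SE 0.9) and overlapped. Lymphocyte markers summed to 35.6 and 36.6 against 23.2 and 25.2 CPM, and epithelial markers to 904 and 1154 against 1061 and 1145 CPM, with none called in either list and MS4A1 and KRT14 at 0. Most of the lymphocyte sum was CD3D, at 32.5 and 34.7 against 20.5 and 23.6 CPM. The part of these cell types in the results was not tested.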

How the data were processed

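WTS was analysed in 4 K562 libraries. The authors deposited raw counts per gene, listed by NCBI gene number. The submitters' processing notes name HISAT2 2.2.1, featureCounts 2.0.1 and hg19. The annotation and the strand and read-pair settings are not given in the sources used here. Of the counts from 1 to 10, 66.7% to 68.9% were even, as when the mates of a pair are counted apart. Library totals were 59695387 to 82352144. Gene numbers were joined to RefSeq symbols (92.2% of 25702 genes matched), and positions are GENCODE positions on GRCh37. The members and lists were chosen with earlier results of these data known.

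Counts were analysed in R 4.3.3 with edgeR 4.0.16 (TMM scaling, filterByExpr, quasi-likelihood test, Benjamini-Hochberg adjustment, threshold 0.05). SE was the size of the log2 fold change over the square root of F. With 2 libraries per group, the smallest exact permutation p is 0.333. Alternatives were other scalings and filters, DESeq2 1.42.0, limma 3.58.1 voom, a replicate block, each library left out and halved counts (each mate pair taken as 1 fragment). The procedure was tested on simulated data. Genes given per library were those called by edgeR or, among the 49, by an alternative with all libraries, those with a log2 fold change of at least 0.58 and no overlap, and the gene of highest mean CPM in each role; SRF, MRTFA, MRTFB, RHOA, PTK2 and SRC were given whatever they did. Others were chosen after their values were seen.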

Additional observations from a re-analysis of the deposited data

How the results depend on the processing

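The 12 alternatives were 2 scalings, 2 filters, DESeq2, voom, the replicate block, halved counts (chosen after seeing the data) and each library left out, where the lone sample is assumed to vary like the other group. The number of genes called was 1500 with no filter on low counts, 1204 with DESeq2, 1733 (11.3%) with the block, and 286 to 1336 without a library. Of the 49 genes, 4 were called higher with library totals, 6 with no filter, 5 with DESeq2, 9 with the block (ACTB at adjusted p = 0.0197, VCL, DIAPH1, ACTN4, ARPC1B, TLN1, DSTN, FERMT3 and GSN) and 1 to 3 without a library. Called lower was 1 (TPM2) with no filter, DESeq2 and the block, and 0 to 2 (TPM2 and CORO1A) without a library. The 2 were called without empty vector replicate 2 (TPM2 -1.42, CORO1A -1.68), and ACTB then passed as well (0.49, adjusted p = 0.0499). Of the other 98, 15, 15 and 22 (with MRTFA, adjusted p = 0.0463) were higher with no filter, DESeq2 and the block, and 4 to 14 without a library. Called lower were 2 (SPTBN1 and RAC3), 3 (with TNS1) and 6 (with CNN2, LCP1 and TMSB10), and 0 to 1 (SPTBN1) without a library. Beside these counts, the share of all genes called in either direction was 4.01% with library totals and 7.38% with no filter. It was 7.82% with DESeq2 and 11.3% with the block. No such share is given for the fits without a library, and the number of all genes called varied widely between them. The counts of listed genes called without a library therefore cannot be told from the background. The median of the 48 was 0.06 to 0.17 without a library. Of the 30 genes recomputed one by one, leaving out a library reversed the direction of 3: CAPZA1 (-0.13 to 0.28, below 0 without replicate 1 of the empty vector or replicate 2 of the fusion), PFN1 (-0.01 to 0.16) and PTK2 (-0.31 to 0.02), both the other way without replicate 1 of the fusion. WAS was not called with voom (adjusted p = 0.051), nor SPTAN1 with library totals (adjusted p = 0.058). BCAR1 lost its call without replicate 1 of the empty vector (0.64), SPTAN1 without replicate 2 of either group (0.59 and 0.76), and SSH2 without replicate 2 of the fusion (0.83). PFN2 could not be tested with at least 10 counts in every library. The causes were not tested. With all libraries, the alternatives left 217 values on their side of the threshold, 20 passed it anew and 2 lost it. The replicate numbers were not used as pairs: the labels give no shared culture or day, and deviations of same-numbered libraries correlated at r = 0.35 over genes, from 2 pairs. Depth limits the 6 members with at most 110 counts in every library.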
